A study of Mus musculus with 6 samples.

Results

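The genes described here are 10 cytokines and adhesion factors that stromal cells of bone marrow make for blood, lymphoid and osteoclast progenitors. They were chosen by name as Kitl, Flt3l, Thpo, Csf1, Il7, Il15, Tslp, Vcam1, Tnfsf11 and Tnfrsf11b, and all 10 were found among the 55471 genes of the table. Polyadenylated RNA of cells labelled as endosteal mesenchymal stromal cells, connective tissue cells from the marrow side of bone, was read in 6 libraries from C57BL/6J mice. The 3 libraries labelled Bap1 cKO carry Prx1-cre;Bap1fl/fl, where Prx1, a promoter of limb mesenchyme, drives the Cre that recombines floxed alleles of Bap1, a histone H2A deubiquitinase. The 3 libraries labelled Bap1 WT carry Bap1fl/fl, the same floxed alleles without Cre. Per the series title, the study concerns the role of Bap1 in these cells as a niche for lymphocyte formation. The labels give neither the age of the mice nor the number of animals behind a group, so the p-values reflect the spread among these 6 libraries, which may be technical.

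Blood progenitors depend on short-range signals from the marrow stroma. Kit ligand, FLT3 ligand and thrombopoietin act on stem cells and early progenitors, interleukin 7 and interleukin 15 on lymphocytes and natural killer cells, and macrophage colony-stimulating factor on the monocytes from which osteoclasts arise. The ligand RANKL, encoded by Tnfsf11, drives osteoclast formation, and its soluble decoy receptor osteoprotegerin, encoded by Tnfrsf11b, blocks it. VCAM-1 holds progenitors on the stroma through integrins.

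Levels are RPKM, that is fragments scaled for transcript length and library depth, so they can be set side by side between genes. The depth estimated from the steps between low values was 13.2 to 22.3 megafragments in the libraries labelled cKO and 13.3 to 15.1 in those labelled WT. For a transcript of 1 effective kilobase, 3 fragments were then worth 0.135 to 0.227 RPKM, and values under this floor are close to single fragments. This floor is used for every gene, is lower for longer transcripts and covers counting error only. Bap1 itself had 28.3, 25.2 and 23.0 RPKM in the libraries labelled cKO, against 22.8, 22.7 and 24.0 in those labelled WT, a log2 difference of 0.13 ± 0.10 (SE). A value summed over the whole gene does not show whether the floxed exons are gone, so it checks nothing, and the groups are called by their labels throughout. Pearson's r of log2(RPKM + 1) across genes, which are not independent replicates, was 0.948 to 0.974 between cKO libraries, 0.987 to 0.988 between WT libraries and 0.757 to 0.824 between the groups. Library cKO replicate 3 stood somewhat apart, at 0.948 to 0.961 to the other cKO libraries. Of 12 mesenchymal stromal markers tested, 1 was higher and 8 were lower in the cKO libraries, among them Pdgfrb and Thy1, and the summed level of all 13 listed was 143 to 184 RPKM in the cKO libraries and 2096 to 2253 in the WT libraries. Prrx1, the gene of the Cre promoter, was at 72.2, 39.5 and 45.5 RPKM in the cKO libraries and at 68.2 to 83.8 in the WT libraries. Prrx1 did not pass (limma adjusted p = 0.0628), though it passed without cKO replicate 1 (0.00299) and with median-of-ratios scaling (0.0382). All 4 osteoblast markers tested were lower, as was Ctsk, the 1 osteoclast marker tested. Of the 7 osteoclast markers listed, 6 stayed under 1 RPKM in every library of both groups. Lepr, a marker of perisinusoidal stroma, did not exceed 0.14 RPKM in any library. The summed level of 10 blood cell markers was 0.43 to 2.58 RPKM in the cKO libraries and 0.52 to 0.92 in the WT libraries, with Cd3e and Ly6g at 0 in every library. For 6 endothelial markers it was 0.13 to 0.65 and 0.1 to 0.24 RPKM in the cKO and WT libraries. For 12 kidney epithelial markers it was 126 to 247 RPKM in the cKO libraries and 7.13 to 9.37 in the WT libraries, nearly all of it Pax8 in the cKO group, with Umod, Calb1 and Emx1 at 0. The 9 epithelial markers summed to 5.19 to 7.24 RPKM in the cKO libraries and to 12.7 to 14.5 in the WT libraries. Of the 2 tested, Krt19 was lower (3.07 ± 2.36 RPKM in cKO and 12.9 ± 1.05 in WT) and Esrp2 higher (2.88 ± 1.56 RPKM in cKO and 0.0433 ± 0.0379 in WT, SD, n = 3 each), while Epcam, Esrp1 and Cdh1 did not exceed 0.43 RPKM in any cKO library and were listed at 0 in WT. With most of the stromal markers tested lower and Pax8 high, the identity of the cells in the libraries labelled cKO is uncertain. Each difference given here is one between libraries so labelled. The part of these other markers in the results that follow was not tested.

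Most of the niche factors were lower in the libraries labelled cKO. Of the 10 genes, 8 reached the mean of 1 RPKM needed for the test, and of these 6 fell (Csf1, Vcam1, Kitl, Tnfrsf11b, Tnfsf11 and Il15) and 2 rose (Thpo and Flt3l). Over all 12223 genes tested, 26.5% were lower and 34.7% higher, 61.2% in either direction (limma, Benjamini-Hochberg adjusted p under 0.05). The median log2 difference was −1.99 over the 8 niche factors and 0.09 over all genes tested, and the median absolute difference was 1.99 against 0.53. The cKO and WT values did not overlap for any of the 8, as for 69% of all genes tested (39.2% higher and 29.8% lower). In 5 of the 8, Thpo, Il15, Vcam1, Tnfsf11 and Tnfrsf11b, the lower group averaged under 1 RPKM. These genes passed the minimum through the higher group, so the counts describe the values and support nothing beyond them. Il7 and Tslp did not reach the minimum. RNA from fewer cells of a kind and less RNA per cell cannot be told apart in such bulk libraries.

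**Figure D1:**
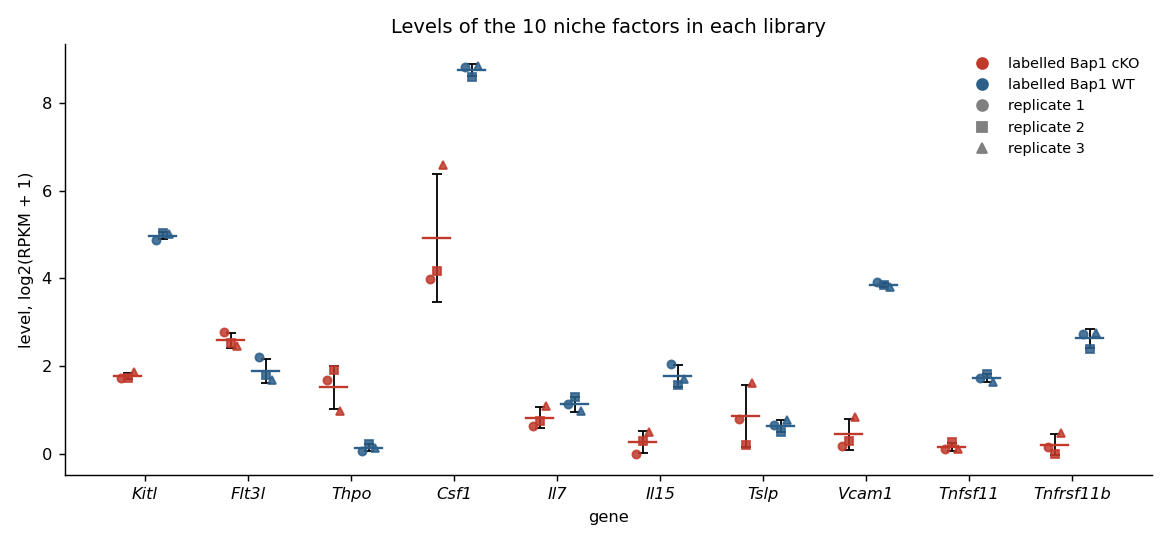
Levels of the 10 niche factors on the log2(RPKM + 1) scale, with 1 point for each library, cKO (red) left of WT (blue), and the mean with its SD over 3 libraries. The groups are far apart for Kitl, Csf1 and Vcam1, the cKO points lie above the WT points for Flt3l and Thpo, and the groups overlap for Il7 and Tslp.

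The order of the levels differed between the groups. In the cKO libraries Csf1 was highest at 42.5 RPKM on average, followed by Flt3l at 5.06 and Kitl at 2.41, with no overlap between these neighbours. The values of Kitl, Thpo (1.97), Tslp (0.973) and Il7 (0.78) overlapped with their neighbours in that order, and so did those of Vcam1, Il15, Tnfrsf11b and Tnfsf11, which averaged 0.387, 0.213, 0.167 and 0.117 RPKM. In the WT libraries Csf1 was highest as well, at 435 RPKM, followed by Kitl at 30.6, Vcam1 at 13.5 and Tnfrsf11b at 5.23, none of which overlapped. Flt3l at 2.76, Il15 at 2.45 and Tnfsf11 at 2.31 RPKM overlapped with each other. Il7 at 1.2, Tslp at 0.557 and Thpo at 0.103 RPKM came last in WT, with no overlap between these neighbours.

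The summed level of the 10 genes was 26.9, 28.3 and 109 RPKM in cKO replicates 1 to 3, against 515, 447 and 520 RPKM in WT replicates 1 to 3. Csf1 made up 55.5, 60.1 and 88.1% of this sum in the cKO libraries and 86.9 to 88.8% in the WT libraries. Flt3l held 21.9, 16.8 and 4.16% in the cKO libraries, against 0.429 to 0.7% in the WT libraries. The makeup of cKO replicate 3 thus differed from that of the other cKO libraries through its Csf1.

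**Figure D2:**
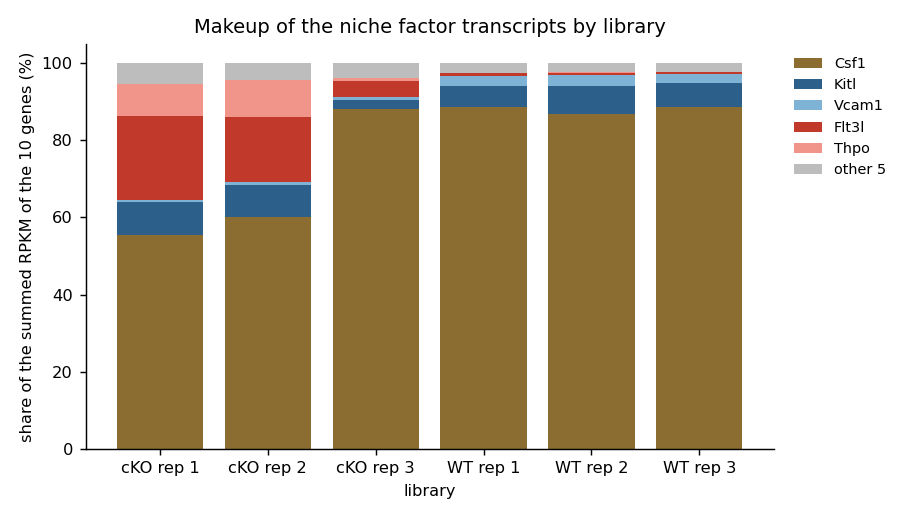
Share of each niche factor in the summed RPKM of the 10 genes, in percent, for the 3 cKO libraries (left) and the 3 WT libraries (right). Csf1 holds 55.5 and 60.1% in cKO replicates 1 and 2, 88.1% in cKO replicate 3 and 86.9 to 88.8% in the WT libraries. In cKO replicates 1 and 2, Flt3l and Thpo take up much of the difference. In cKO replicate 3 they hold 4.16 and 0.875%.

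Among the factors for stem and early progenitor cells, Kitl fell and Flt3l and Thpo rose. Kitl encodes stem cell factor, the ligand of the receptor Kit, and lies on chromosome 10 (100015630 to 100100416, plus strand, GRCm38). It was at 2.3, 2.32 and 2.62 RPKM in cKO, against 28.5, 32.0 and 31.2 RPKM in the WT libraries. The 3 cKO values lay close together and far under the lowest WT value. The means of 2.41 ± 0.179 and 30.6 ± 1.84 RPKM in the cKO and WT libraries (SD, n = 3 each) differed 12.7-fold, a log2 difference of −3.21 ± 0.10 (SE, adjusted p = 2.48e-06 by limma and Benjamini-Hochberg). The coefficient of variation was 7.43% in the cKO libraries and 6.02% in the WT libraries, so the relative spread of Kitl was similar in both groups. Kit, its receptor, did not exceed 0.02 RPKM in any library.

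Flt3l encodes the ligand of the receptor FLT3, which supports dendritic cell and lymphoid progenitors, and lies on chromosome 7 (45129788 to 45136432, minus strand, GRCm38). It was at 5.89, 4.77 and 4.52 RPKM in cKO, against 3.6, 2.46 and 2.23 RPKM in the WT libraries. The lowest cKO value was above the highest WT value by less than the range within either group. The means of 5.06 ± 0.730 and 2.76 ± 0.734 RPKM (cKO and WT, SD, n = 3 each) differed 1.83-fold, a log2 difference of 0.70 ± 0.18 (SE, adjusted p = 0.0129 by limma and Benjamini-Hochberg). Genes of chromosome 7 shared this shift, since their median log2 difference was 0.64. With each chromosome centred on its own median, the log2 difference of Flt3l was 0.05 ± 0.18 (SE) with a limma adjusted p of 0.812. The annotation also holds Gm45713, a coding gene on the same strand that covers 6444 bp of Flt3l and was listed at 0, so the split of fragments between them is uncertain.

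The rise of Flt3l was also seen in its neighbours. Of 19 tested genes whose start site lay within 200 kb of that of Flt3l, 13 were higher and 2 lower, with a median log2 difference of 0.65. The ribosomal protein gene Rpl13a averaged 2254 ± 57.2 RPKM in the cKO libraries and 1277 ± 10.9 in the WT libraries, and Irf3, an interferon regulatory factor, averaged 63.5 ± 1.03 and 27.8 ± 2.01 RPKM (cKO and WT, SD, n = 3 each). With each chromosome centred, 2 of the 19 were higher and 4 lower.

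Thpo encodes thrombopoietin, which acts on stem cells and megakaryocytes and is made mostly in liver and kidney. It lies on chromosome 16 (20724454 to 20734511, minus strand, GRCm38). It was at 2.22, 2.74 and 0.95 RPKM in cKO, against 0.05, 0.16 and 0.1 RPKM in the WT libraries, where every value lay under the floor. All 3 cKO values stood above the floor, and cKO replicate 3 was the lowest of them. The log2 difference of log2(RPKM + 1) was 1.38 ± 0.26 (SE, adjusted p = 0.00405 by limma and Benjamini-Hochberg), and no fold is given against WT values this low. Chromosome 16 had a median log2 difference of −0.22.

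The neighbour Chrd, which encodes the BMP antagonist chordin, overlaps Thpo by 1385 bp on the opposite strand. Chrd was at 5.49, 4.62 and 2.86 RPKM in the cKO libraries and at 0.34, 0.13 and 0.14 in WT, and cKO replicate 3 was again the lowest of its group. The library kit keeps strand, but the sources used here do not give how strand was handled in counting, so fragments of Thpo and Chrd may not be fully separate. Of 13 tested genes with a start site within 200 kb of that of Thpo, 8 were higher and 3 lower, with a median log2 difference of 0.42, and with each chromosome centred 9 were higher and 1 lower. Fam131a, for instance, averaged 6.16 ± 1.12 RPKM in the cKO libraries and 1.67 ± 0.661 in the WT libraries, while Polr2h, a subunit of RNA polymerase II, averaged 47.3 and 36.9 RPKM (cKO and WT).

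**Figure D3:**
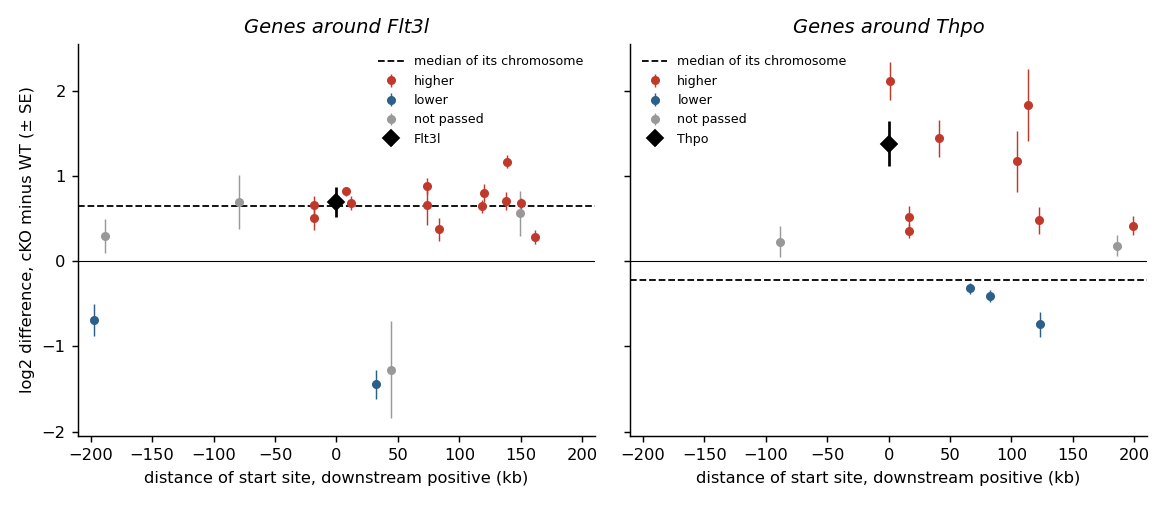
Log2 differences (cKO minus WT, ± SE) of tested genes around Flt3l and Thpo against the distance of their start sites in kb, positive in the direction of transcription. Flt3l (black diamond, 0.70) lies near the median of its chromosome (dashed, 0.64), and Thpo (1.38) lies above that of its own (−0.22), beside Chrd at 2.12.

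Csf1 encodes macrophage colony-stimulating factor and lies on chromosome 3 (107741048 to 107760469, minus strand, GRCm38). It was at 14.9, 17.0 and 95.7 RPKM in cKO, against 456, 388 and 462 RPKM in the WT libraries. The cKO values all lay under the WT values, but cKO replicate 3 was several times higher than the other cKO libraries. The means were 42.5 ± 46.0 RPKM in the cKO libraries and 435 ± 40.7 RPKM in the WT libraries (SD, n = 3 each), a 10.2-fold difference that came to 27.2-fold without cKO replicate 3. The library cKO replicate 3 was also the deepest library, and the stromal marker Pdgfrb was at 2.09, 1.25 and 7.95 RPKM in cKO, against 94.4 to 99.0 RPKM in WT, and the part of either in the level of Csf1 was not tested. The log2 difference of Csf1 was −3.84 ± 0.66 (SE, adjusted p = 0.00259 by limma and Benjamini-Hochberg). Csf1r, its receptor on monocytes and osteoclast precursors, was at 0.31 to 1.3 RPKM over all libraries, and Il34, the other ligand of that receptor, was at 2.72, 5.63 and 8.24 RPKM in the cKO libraries and 6.15, 4.56 and 3.74 in the WT libraries and did not pass (limma adjusted p = 0.833).

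RefSeq gave promoter windows for 5 of the 10 genes, in 6 windows on GRCm38.p6, and the 250 bases before the start site are shown for Kitl, Csf1 and Tnfsf11, which fell, and for Flt3l, which rose. They are written 5′ to 3′ on the strand of the gene, and capitals mark matches to the searched motifs. The start sites are those of RefSeq, and that of Kitl lies 191 bases from the GENCODE one.
Kitl (chr10:100015571-100015820, plus strand): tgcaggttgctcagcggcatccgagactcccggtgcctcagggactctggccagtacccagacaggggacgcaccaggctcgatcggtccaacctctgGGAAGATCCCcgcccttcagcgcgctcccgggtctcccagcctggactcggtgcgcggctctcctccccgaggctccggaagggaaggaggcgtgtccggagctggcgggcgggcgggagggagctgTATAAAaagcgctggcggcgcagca
Csf1 (chr3:107760470-107760719, minus strand): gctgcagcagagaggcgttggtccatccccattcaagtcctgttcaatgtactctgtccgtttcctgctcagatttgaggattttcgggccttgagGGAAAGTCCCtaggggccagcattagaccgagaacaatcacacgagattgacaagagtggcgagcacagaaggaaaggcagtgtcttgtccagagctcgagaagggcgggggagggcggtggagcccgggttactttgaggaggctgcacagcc
Tnfsf11 (chr14:78308044-78308293, minus strand): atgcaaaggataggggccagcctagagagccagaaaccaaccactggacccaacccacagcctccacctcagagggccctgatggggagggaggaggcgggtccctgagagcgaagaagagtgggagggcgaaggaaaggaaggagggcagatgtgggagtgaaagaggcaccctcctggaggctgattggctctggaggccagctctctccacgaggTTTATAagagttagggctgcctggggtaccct
Flt3l (chr7:45136433-45136682, minus strand): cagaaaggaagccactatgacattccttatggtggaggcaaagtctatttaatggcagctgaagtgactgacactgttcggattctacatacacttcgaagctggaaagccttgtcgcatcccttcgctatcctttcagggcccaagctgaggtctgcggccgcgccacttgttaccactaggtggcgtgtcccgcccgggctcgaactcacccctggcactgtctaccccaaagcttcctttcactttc

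The motifs searched on both strands were the TATA box (TATAAA), the RUNX site (TGTGGT), the EBF site (TCCC and GGGA with 2 bases between) and the NF-kappa-B consensus, and no matches overlapped each other. Kitl held a TATA box whose first printed base lay 25 bases before the start site and an NF-kappa-B match on the other strand at 152 bases before it. Csf1 held an NF-kappa-B match on the other strand at 154 bases before the start site, and Tnfsf11 a TATA box on the other strand at 32 bases before it. The windows of Flt3l and of Thpo held none of the motifs. Over all 32851 windows of the table, cut to the same 250 bases, 12.4% held the TATA box, 14.0% the RUNX site, 0.779% the EBF site and 7.25% the NF-kappa-B consensus. CG dinucleotides numbered 23 in the Kitl window, 10 in that of Csf1, 11 in that of Flt3l and 4 in that of Tnfsf11, against a median of 6 over all windows. These matches are letters in a window and not sites of binding.

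Among the lymphoid cytokines, Il15 fell, and the values of Il7 and Tslp overlapped between the groups. Il15, which supports natural killer cells and memory T cells, lies on chromosome 8 (82331632 to 82403222, minus strand, GRCm38). It was listed at 0, 0.22 and 0.42 RPKM in cKO, against 3.12, 1.97 and 2.25 RPKM in the WT libraries. No cKO value came near the lowest WT value, and cKO replicate 1 lay under the floor. The log2 difference of log2(RPKM + 1) was −1.51 ± 0.21 (SE, adjusted p = 0.000951 by limma and Benjamini-Hochberg). Interleukin 15 is carried to its target cells by its own receptor chain Il15ra, which fell too. Il15ra averaged 4.55 ± 1.42 RPKM in the cKO libraries and 10.7 ± 1.81 in the WT libraries (SD, n = 3 each), a 2.35-fold difference (limma adjusted p = 0.00427).

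Il7 encodes the cytokine that B and T cell progenitors require and lies on chromosome 3 (7569994 to 7613760, minus strand, GRCm38). It was at 0.55, 0.67 and 1.12 RPKM in cKO, against 1.18, 1.47 and 0.95 RPKM in the WT libraries. Here cKO replicate 3 stood within the WT range and the other cKO libraries under it. Its mean over 6 libraries of 0.99 RPKM missed the minimum, and with a minimum of 0.1 RPKM the log2 difference was −0.31 ± 0.16 (SE) with a limma adjusted p of 0.156. The only tested gene within 200 kb, Zc2hc1a, averaged 9.97 ± 1.6 RPKM in the cKO libraries and 66.4 ± 1.76 in the WT libraries.

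Tslp encodes thymic stromal lymphopoietin, a relative of interleukin 7, and lies on chromosome 18 (32815383 to 32819797, plus strand, GRCm38). It was at 0.72, 0.15 and 2.05 RPKM in cKO, against 0.57, 0.4 and 0.7 RPKM in the WT libraries. The cKO values lay on either side of the WT values, with cKO replicate 3 the highest library and cKO replicate 2 the lowest. With a minimum of 0.1 RPKM the log2 difference was 0.23 ± 0.34 (SE) with a limma adjusted p of 0.598, an error too wide to tell a rise from a fall. Its receptor chain Crlf2 was at 2.56, 8.99 and 4.55 RPKM in the cKO libraries and 9.32 to 9.96 in the WT libraries. Crlf2 did not pass (limma adjusted p = 0.0648), though it passed without cKO replicate 2 (0.00353). It also passed with median-of-ratios scaling (0.0433), quantile normalization (0.0416), each chromosome centred (0.0371) and sample weights (0.0377).

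Vcam1 encodes the adhesion molecule VCAM-1 and lies on chromosome 3 (116109949 to 116129688, minus strand, GRCm38). It was at 0.13, 0.23 and 0.8 RPKM in cKO, against 14.04, 13.37 and 13.03 RPKM in the WT libraries. The WT values agreed closely, with a coefficient of variation of 3.81%, and every cKO value was far under them. Among the cKO libraries, replicate 3 was the highest and replicate 1 lay under the floor. The log2 difference of log2(RPKM + 1) was −3.41 ± 0.19 (SE, adjusted p = 2.81e-05 by limma and Benjamini-Hochberg). Itga4, which forms the integrin that binds VCAM-1 on blood cells, was listed at 0 in every library. Its partner chain Itgb1 averaged 340 ± 117 RPKM in the cKO libraries and 437 ± 7.58 in the WT libraries. Itgb1 did not pass (limma adjusted p = 0.165), though it passed without cKO replicate 3 (0.00974) and with sample weights (0.0173).

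The osteoclast ligand and its decoy receptor fell together. Tnfsf11, which encodes RANKL, lies on chromosome 14 (78277445 to 78308043, minus strand, GRCm38). It was at 0.07, 0.2 and 0.08 RPKM in the cKO libraries, all under the floor, against 2.3, 2.51 and 2.12 RPKM in the WT libraries. The log2 difference of log2(RPKM + 1) was −1.57 ± 0.15 (SE, adjusted p = 0.000186 by limma and Benjamini-Hochberg). Tnfrsf11b, which encodes osteoprotegerin, lies on chromosome 15 (54250619 to 54278484, minus strand, GRCm38). It was at 0.11, 0 and 0.39 RPKM in cKO, against 5.68, 4.23 and 5.79 RPKM in the WT libraries, and cKO replicate 3 was the 1 cKO library above the floor. Its log2 difference was −2.42 ± 0.19 (SE, adjusted p = 9.35e-05 by limma and Benjamini-Hochberg). The only tested gene within 200 kb of Tnfrsf11b, the collectin Colec10, was listed at 0 in all 3 cKO libraries, against values of 2.35, 2.6 and 2.67 RPKM in WT.

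The level of the ligand relative to its decoy was taken as log2 of (Tnfsf11 + 1) over (Tnfrsf11b + 1), in RPKM. It was −0.05, 0.26 and −0.36 in the cKO libraries, against −1.02, −0.58 and −1.12 in the WT libraries, a difference of 0.85 (exact permutation test, 2-sided, p = 0.1, the smallest that 3 against 3 libraries allow). In the WT libraries the decoy thus stood above the ligand. In the cKO libraries most of the values behind the ratio lay under the floor, and with a pseudocount of 0.1 RPKM the groups overlapped (exact p = 0.4), so the ratio there is not measurable at this depth. Tnfrsf11a, the signalling receptor of RANKL on osteoclast precursors, did not exceed 0.17 RPKM in any library. Lgr4, described in mouse as another receptor of RANKL, rose 3.7-fold, with 37.9, 18.5 and 12.8 RPKM in the cKO libraries and 6.19 to 6.29 in the WT libraries (limma adjusted p = 0.0076).

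**Figure D4:**
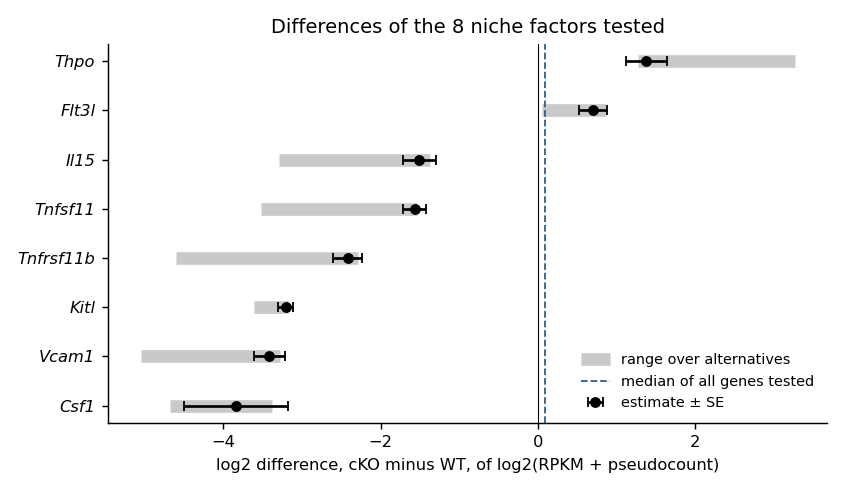
Log2 differences (cKO minus WT) of the 8 niche factors tested, with the standard error (black) and the range over the alternative settings (grey). Of these, 6 lie left of 0, Flt3l and Thpo lie right of it, and the range of Flt3l reaches the median of all genes (dashed).

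Other genes of the same pathways moved in both directions. So did the genes tested as a whole, 34.7% of them higher and 26.5% lower, and the counts of each list stand beside these shares. Of 14 receptors and counter-receptors of the factors, 8 stayed under 1 RPKM in every library, with Il7r at 0 throughout like Itga4. Of the 4 tested, Lgr4 rose and Il15ra fell, with a median log2 difference of −0.65. Of 12 sheddases, matrix proteases and inhibitors that act on membrane-bound Kit ligand, macrophage colony-stimulating factor, RANKL or VCAM-1, 10 were tested, 3 rose and 5 fell, with a median log2 difference of −0.47. Mmp14, a membrane-type metalloprotease, averaged 52.9 ± 14.0 RPKM in the cKO libraries and 231 ± 5.59 in the WT libraries (SD, n = 3 each), and Mmp2 fell 3.97-fold. Adam8 fell 4.09-fold (6.40-fold without cKO replicate 2), and Timp3, an inhibitor of ADAM17, rose 2.87-fold to 543 ± 177 RPKM in cKO, against 189 ± 32.3 in the WT libraries. Mmp9, which releases soluble Kit ligand in mouse marrow, did not exceed 0.08 RPKM in any library.

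Of 29 other haematopoietic cytokines, 13 were tested, 4 rose and 5 fell, with a median log2 difference of 0.02. Angpt1, a ligand of the receptor Tek, fell 43.6-fold and Bmp4 fell 2.73-fold. Csf3, which encodes the granulocyte factor G-CSF, was at 61.4, 44.0 and 24.2 RPKM in cKO, against 0, 0.12 and 0.05 in the WT libraries (limma Benjamini-Hochberg adjusted p = 3.44e-05). Ctf1, which encodes cardiotrophin 1, was at 12.7, 12.4 and 8.57 RPKM in the cKO libraries and listed at 0 in every WT library. Epo, Il1a, Il1b, Il3, Il5 and Osm were at 0 in every library.

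Of 21 chemokines and other adhesion molecules, 11 were tested, 2 rose and 5 fell, with a median log2 difference of −0.55. Cxcl12, the main chemokine that retains progenitors in marrow, fell 16.1-fold (33.3-fold without cKO replicate 3), the matrix protein gene Spp1 fell 18.5-fold (28.7-fold without cKO replicate 3) and the hyaluronan receptor gene Cd44 fell 3.3-fold. Icam1, which encodes an integrin ligand of the same family as VCAM-1, went the other way from Vcam1, at 5.26, 4.37 and 6.37 RPKM in the cKO libraries and 0.03, 0 and 0.06 in the WT libraries (limma Benjamini-Hochberg adjusted p = 3.97e-05). Ccl19, Ccl21a and Cxcl13 were at 0 throughout.

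Of 16 other signals between osteoblasts and osteoclasts, 14 were tested, 6 rose and 6 fell, with a median log2 difference of −0.51. Sema3a, which restrains osteoclasts in mouse, was at 0.25, 0.43 and 1.91 RPKM in the cKO libraries and 23.5, 27.5 and 24.4 in the WT libraries, a 29.1-fold difference (73.9-fold without cKO replicate 3). Sfrp1 was at 0.05, 0.1 and 0.21 RPKM in the cKO libraries and 14.8 to 16.3 in the WT libraries, and Postn fell 26.7-fold. Wnt16, which raises osteoprotegerin in mouse osteoblasts, was at 56.6, 76.9 and 20.7 RPKM in the cKO libraries and listed at 0 in the WT libraries.

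Of 25 hormone receptors and transcription factors that act upstream of these cytokines, 22 were tested, 7 rose and 7 fell, with a median log2 difference of −0.15. The NF-kappa-B inhibitor Nfkbia was at 400.0, 377 and 338 RPKM in cKO, against 17.3, 17.0 and 19.3 in the WT libraries, a 20.8-fold difference (limma Benjamini-Hochberg adjusted p = 7.23e-07). Of the 4 NF-kappa-B subunit genes listed, Relb rose, with 8.36, 10.5 and 12.7 RPKM in cKO and 3.78, 3.2 and 4.01 in WT (limma Benjamini-Hochberg adjusted p = 0.00069). Nfkb1, Nfkb2 and Rela had log2 differences of −0.02, 0.21 and −0.19 and did not pass (limma adjusted p = 0.847, 0.213 and 0.323), though Nfkb2 passed without cKO replicate 2 (0.0485) and with each chromosome centred (0.0317). Ptger4, a prostaglandin E receptor that raises RANKL in osteoblasts, rose 26.4-fold, and Foxc1, a factor of niche stromal cells, rose 5-fold. Ebf1, a factor of the same cells, was at 0.04, 0.01 and 0.13 RPKM in the cKO libraries and 10.5 to 13.1 in the WT libraries. Vdr, the vitamin D receptor, through which RANKL is induced, averaged 46.3 ± 9.69 RPKM in the cKO libraries and 53.0 ± 1.53 in the WT libraries and did not pass (limma adjusted p = 0.238), though it passed without cKO replicate 2 (0.00759). Without cKO replicate 3, the counts of these lists moved by at most 2 genes in either direction.

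**Figure D5:**
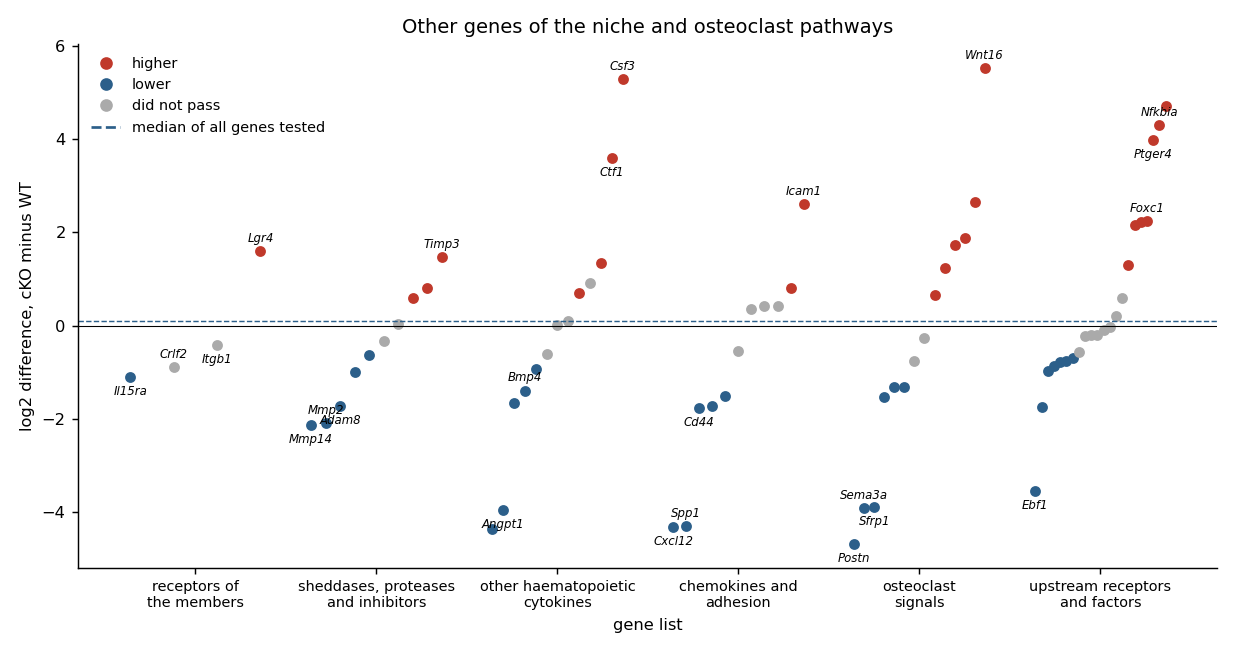
Log2 differences (cKO minus WT) of the tested genes in 6 lists of related genes, with genes that rose in red, fell in blue and did not pass in grey, and up to 4 genes with the smallest p named in each. Csf3, Ctf1, Icam1 and Wnt16 lie at the upper end of their lists, and Angpt1, Cxcl12, Postn and Ebf1 lie at or near the lower end.

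Genes with values most like each factor were found by the root mean square difference of log2(RPKM + 1) over the 6 libraries, after each gene's WT mean was subtracted. Nearest to Kitl were Pla2r1, Arhgef6 and Rftn2, at 0.0473 to 0.0871. The collagen genes Col7a1 and Col1a1 were among the nearest to Csf1, at 0.271 and 0.336. Vcam1 lay nearest to Tiam2, Tnfrsf1b and Prkar2b, Tnfsf11 to Kcnd1, Foxa1 and Scml2, and Tnfrsf11b to Rasgrp3, Gpr39 and Aifm2. Il15 lay nearest to Prss46, Erc2 and Nln, Thpo to Zfhx2, Sipa1l2 and N4bp2, and Flt3l to Dcun1d3, Zfyve21 and Ttc33. With so large a difference between 2 groups, such likeness rests mainly on the size of that difference.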

How the data were processed

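Endosteal mesenchymal stromal cells were profiled in 3 libraries labelled Bap1 cKO and 3 labelled Bap1 WT. Per the labels' protocols, RNA was taken up in TRIzol and made into stranded mRNA libraries for 151 bp paired reads. Tools named in the submitters' processing notes are STAR 2.7.1a, RSEM 1.3.1 and cutadapt 2.8, with build GRCm38, and the annotation version is not given in the sources used here. The authors deposited the values as RPKM with 2 decimals, 1 column per library. No read counts were used, and the depth was estimated from steps between low values of genes with 1 transcript of 800 to 3500 bp, less 150 bp. Between 82.5 and 95.8% of these values came within 0.2 of whole fragments (40% by chance).

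GENCODE M21 gave symbols and positions for 55144 of 55471 identifiers. Groups were compared by a 2-sided limma test (3.58.1, in R 4.3.3) of log2(RPKM + 1), its variance prior following the mean level, over genes whose mean reached 1 RPKM. Genotype was the only term, and p-values were adjusted over all genes tested by Benjamini-Hochberg, with a threshold of 0.05. Folds are ratios of mean RPKM, and none is given where any library of the lower group fell under the floor of 3 fragments. The fit was tested on simulated data with independent noise for each gene (12223 genes, 200 of them changed). It recovered 68.6% of log2 changes of 1 and 89.8% of log2 changes of 2, and 5.08% of its calls were false. In the real libraries 61.2% of genes were called, so these rates may not hold there.

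The 10 genes and the lists were chosen with earlier results of these data known. Genes named from a list are the 4 with the smallest p, with receptors of the 10 factors, genes listed at 0 and Vdr, Il34, Mmp9, epithelial markers and the NF-kappa-B subunits named after their values were seen, as were the neighbours within 200 kb. Some genes that this rule names are not reported here. The main fit did not pair the samples by replicate number. Alternatives were other pseudocounts, minimum levels, scalings, variance priors, sample weights, the replicate block and leaving out each library. Python 3.11.15, numpy 2.4.6, pandas 2.3.3, scipy 1.17.1 and matplotlib 3.10.9 were used.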

Additional observations from a re-analysis of the deposited data

How the results depend on the processing

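Of 141 values of the 8 tested niche factors under the alternatives, 140 kept their direction and side of the threshold, and none turned. The exception was Flt3l with each chromosome centred (log2 difference 0.05, limma adjusted p = 0.812). The 2 higher and 6 lower calls became 0 and 3 with a minimum mean of 5 RPKM, which leaves fewer factors to test. Under median-of-ratios scaling and with each chromosome centred 1 was higher. Leaving out each library in turn gave 1 to 2 higher and 4 to 6 lower, where Thpo (without cKO replicate 1 or 2), Il15 (without WT replicate 1) or Tnfsf11 (without WT replicate 1 or 2) missed the minimum mean. Over the genes with the smallest p in each list, the genes most like each factor, the named neighbours and Bap1, 1185 of 1197 values kept their call, 3 lost it (Dcun1d3 and Zfyve21 among them, each with chromosomes centred), 9 gained it (Crlf2, Itgb1 and Prrx1) and none turned. This count leaves out Vdr, Il34, Krt19, Esrp2 and the NF-kappa-B subunit genes. The receptors called lower were 1 with all libraries and 2 without cKO replicate 3. Replicate numbers are shared by the groups, but deviations of same-numbered libraries correlated at -0.0166, 0.0505 and -0.0189. No pairing was seen in these values, but 3 libraries per group cannot exclude a weak one. With the replicate block the factors still gave 2 higher and 6 lower calls, and 3811 genes were higher and 2938 lower, against 4237 and 3239 without it. The ratio of Tnfsf11 to Tnfrsf11b differed by 1.08 with a pseudocount of 0.1 (exact p = 0.4) and by 0.70 to 1.02 when a library was left out. Depth limits Il15, Vcam1, Tnfsf11 and Tnfrsf11b in the cKO libraries and Thpo in the WT libraries. There, 1 library (Il15, Vcam1), 2 (Tnfrsf11b) or all 3 (Tnfsf11, Thpo) lay under the floor.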
